A study of Homo sapiens with 10 samples.

Results

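The 10 genes described here are Janus kinases (JAK1, JAK2, JAK3 and TYK2), STAT transcription factors (STAT3, STAT5A and STAT5B) and STAT5 target genes (SOCS2, CISH and PIM1), measured in a human chronic myeloid leukaemia (CML) cell line and in its cyclophosphamide-resistant subline, cyclophosphamide being a drug that crosslinks DNA. The members are all probe sets that the platform annotation assigns to 1 of these genes. There were 19 such probe sets for 9 of the 10 genes, of 12558 probe sets for 8226 genes in all; no probe set used here carried the name CISH, so that gene was not analysed. RNA was taken from 5 samples of sensitive and 5 samples of resistant cells, all grown in culture medium, and each sample was hybridised to an oligonucleotide array of its own. The labels name neither the line nor the way in which resistance was raised, and list no drug in the medium of either group. Nothing in them says that the 5 samples of a group were separate cultures, so p-values cover only the spread between these samples, possibly a technical one, and the resistant group stands for 1 subline.

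Janus kinases sit on the inner ends of cytokine receptors, and when a cytokine draws the receptor chains together they phosphorylate each other, the receptor and the STAT proteins that dock on it. Phosphorylated STATs pair, enter the nucleus and bind short palindromic sites in DNA. In CML the BCR-ABL fusion kinase keeps STAT5 phosphorylated without a cytokine, and STAT5 in turn drives survival genes as well as SOCS family inhibitors that damp the same receptors. The arrays measured transcripts, not phosphorylation.

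The DNA site that STAT5 binds is TTCNNNGAA, a palindrome that reads the same on both strands. It was searched for in the promoter windows of RefSeq, build GRCh38.p14, which reach from 250 bases before to 50 bases after each transcription start. Of 35116 windows of this length, 2689 (7.66%) held at least 1 match. Windows were found for 9 of the 10 genes, 16 in all, and 1 of the 16 held the motif, that of CISH; SOCS2 was not matched. The bases upstream of CISH are shown as an example of a STAT5 target with 4 matches, which begin 241, 230, 129 and 112 bases before the start, and those of PIM1 because PIM1 rose in resistant cells while the window held no match. Capitals mark the matches. The CISH stretch lies at chr3:50611775-50612024 on the minus strand and the PIM1 stretch at chr6:37169902-37170151 on the plus strand, both read 5′ to 3′.
CISH: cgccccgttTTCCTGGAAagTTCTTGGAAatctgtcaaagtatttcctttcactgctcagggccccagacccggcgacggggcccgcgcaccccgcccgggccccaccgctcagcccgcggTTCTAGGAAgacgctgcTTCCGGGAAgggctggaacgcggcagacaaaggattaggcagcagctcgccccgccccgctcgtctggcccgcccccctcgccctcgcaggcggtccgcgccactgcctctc
PIM1: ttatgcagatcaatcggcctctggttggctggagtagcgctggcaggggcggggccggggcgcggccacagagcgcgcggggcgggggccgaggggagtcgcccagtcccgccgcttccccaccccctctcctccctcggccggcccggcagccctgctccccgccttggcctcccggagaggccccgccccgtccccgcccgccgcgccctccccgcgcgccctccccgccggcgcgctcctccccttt
Windows with 4 or more matches made up 0.0199% of all windows. A match of letters is not evidence of binding, and windows without a match say nothing of sites elsewhere.

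In resistant cells STAT5A, JAK1, SOCS2 and PIM1 had higher signals, each by between 2.01-fold and 2.79-fold at the brightest probe set of the gene. STAT5B, JAK2, JAK3, TYK2 and STAT3 did not pass the test. Values are MAS5 signals, a linear intensity, and tests are on log2(signal + 114.8) with limma and Benjamini-Hochberg adjustment over all 12558 probe sets, called at an adjusted p under 0.05; folds are on this scale, which understates the change of dim probe sets. Of the 19 probe sets, 6 were called, all 6 higher in resistant arrays, and 13 were not. Over all probe sets 7.41% were called, 4.42% as higher and 2.99% as lower. The median log2 difference was 0.50 over the 19 probe sets and 0.029 over all probe sets. Probe sets of 1 gene read the same transcript and do not count as separate evidence. The sensitive and resistant signals did not overlap in 7 of the 19, with the resistant arrays higher in each, against 4.94% of all probe sets (8.5% without overlap in either direction).

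**Figure D1:**
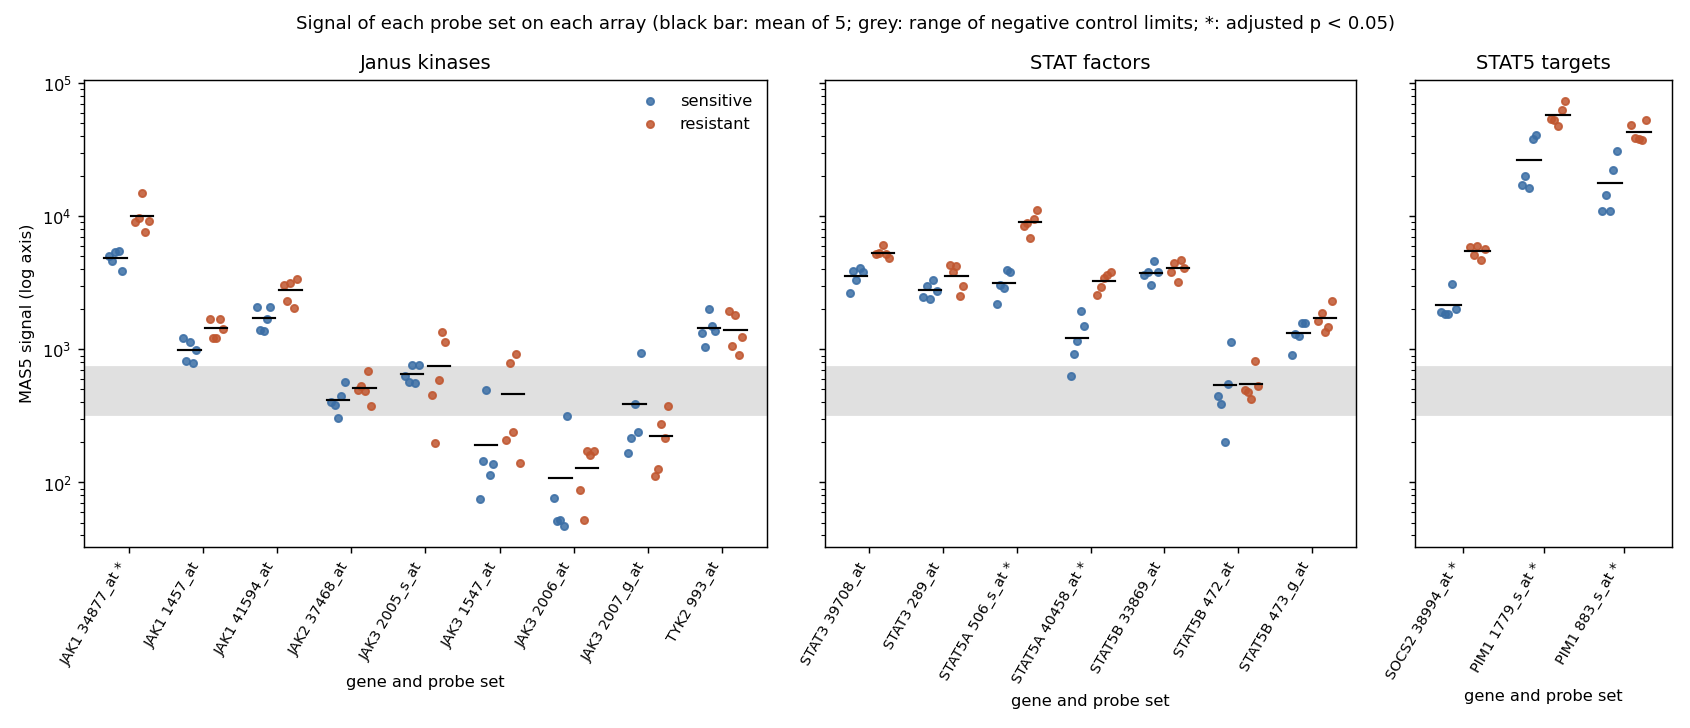
MAS5 signal on a log axis for each of the 19 probe sets, with a point per array (blue sensitive, orange resistant), a black bar for the mean of 5 and a grey band for the range of the arrays' negative control limits, 319.7 to 739.8. The resistant points lie above all sensitive points in both STAT5A and both PIM1 probe sets, in SOCS2, in JAK1 34877_at and in STAT3 39708_at, while most JAK2 and JAK3 points lie in or under the band.

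The arrays differed in background, and no measure of RNA quality was used. The 95th percentile of 32 control probe sets without a human target set a background limit of 319.7 to 739.8 per array, and 51.0% to 61.3% of probe sets exceeded it. Of the 19 probe sets, 13 were above the limit on all 10 arrays, and precision is limited by the number of arrays. In the sensitive cells, most listed granule genes of eosinophils and granulocyte precursors were bright, and 8 of 9 measured markers of that list were called lower in resistant cells. The signals of the list summed to between 180338 and 460861 in sensitive and between 2027 and 3208 in resistant arrays. The exception, MPO, was near background in both groups (269 ± 227 and 304 ± 153). It was above the limit on 1 sensitive and 2 resistant arrays and was not called. Of 8 T cell and 5 B cell markers, 0 were called by limma, and 1 and 0 had an unadjusted p under 0.05. Of the others, 2 of 11 erythroid markers were called (KLF1 higher, CA2 lower), 1 of 7 megakaryocytic (ITGA2B, higher), 1 of 5 monocyte (LYZ, higher) and 1 of 5 fibroblast markers (LUM, lower). Over all 8226 genes 8.4% were called, so counts this small say little about cell type. Of the 7 megakaryocytic markers, 5 were at or under the limit on all arrays. In bulk RNA, fewer cells of a type and less RNA per cell cannot be told apart.

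JAK1, the kinase shared by interferon, interleukin 6 and common gamma chain receptors, was measured by 3 probe sets. At 34877_at the sensitive arrays gave signals of 5016, 4639, 5421, 5533 and 3896, and the resistant arrays 9049, 9802, 15070, 7597 and 9264. No resistant array reached as low as the highest sensitive one, and resistant replicate 3 stood above the rest. The log2 difference was 1.01 (SE 0.21, adjusted p = 0.0103), a fold of 2.01 with a 95% interval of 1.46 to 2.75. The other JAK1 probe sets differed less and were not called. At 41594_at the means were 1723 ± 351 and 2799 ± 574 (SD, n = 5), with a log2 difference of 0.66 (SE 0.21, adjusted p = 0.0833), and sensitive replicates 1 and 5 reached the lowest resistant array. For 1457_at the means were 991 ± 187 and 1450 ± 239, with a log2 difference of 0.50 (SE 0.19, adjusted p = 0.157). The differences of all 3 were above 0 and their intervals overlapped, but the call of JAK1 rests on 34877_at. With a pseudocount of 500, 41594_at was called as well (adjusted p = 0.0369).

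JAK2, the kinase of the erythropoietin, thrombopoietin and growth hormone receptors, had a single probe set close to background. Its signals were 400, 383, 305, 446 and 567 in sensitive arrays and 492, 534, 491, 691 and 375 in resistant arrays. It was above the limit on 2 of 5 arrays in each group, and the groups overlapped. The log2 difference of 0.24 (SE 0.19, adjusted p = 0.602) has a 95% interval of -0.19 to 0.66, so a rise of the size seen in STAT5A lies outside it, with the reserve that a signal this near background understates change.

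JAK3, the lymphoid kinase paired with the common gamma chain, was represented by 4 probe sets, none of them called. The brightest, 2005_s_at, gave 658 ± 103 in sensitive and 746 ± 481 in resistant arrays, and its resistant values spread from 198 to 1346. Its log2 difference was -0.041 (SE 0.37, adjusted p = 0.979), and the sign turned to 0.021 with a pseudocount of 500. The other 3 lay mostly under the limit and disagreed in sign, from -0.46 at 2007_g_at to 0.80 at 1547_at. No direction can be given for JAK3.

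TYK2, the kinase of the interferon alpha and interleukin 12 receptors, gave signals of 1321, 1046, 2025, 1499 and 1369 in sensitive arrays and 1938, 1053, 1826, 906 and 1243 in resistant arrays. The groups covered nearly the same range on all 10 arrays above background. The log2 difference was -0.081 (SE 0.25, adjusted p = 0.92), with a 95% interval of -0.62 to 0.46.

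STAT5A rose at both of its probe sets. At 506_s_at the sensitive signals were 2201, 3041, 2887, 3955 and 3842, and the resistant signals 8505, 8877, 6934, 9587 and 11125. The lowest resistant array was well above the highest sensitive array. The mean signals were 3185 ± 725 and 9006 ± 1532 (SD, n = 5). The log2 difference was 1.48, with an SE of 0.21 and an adjusted p of 0.000706, and this is a fold of 2.79 (95% interval 2.04 to 3.82). The second probe set, 40458_at, gave 631, 924, 1167, 1936 and 1490 in sensitive and 2575, 2948, 3431, 3623 and 3811 in resistant arrays, again without overlap. Its log2 difference was 1.41 (SE 0.26, adjusted p = 0.0055). STAT5A stayed called at both probe sets under each of the 16 alternatives, with adjusted p-values of at most 0.00356 at 506_s_at and 0.0184 at 40458_at.

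STAT5B, the close paralogue of STAT5A, was not called at any of its 3 probe sets. At 33869_at the sensitive signals were 3624, 3794, 3062, 4590 and 3836, and the resistant signals 3846, 4491, 3241, 4703 and 4075. The 2 groups interleaved, and the log2 difference was 0.10 (SE 0.18, adjusted p = 0.846) with a 95% interval of -0.28 to 0.49. The 473_g_at probe set differed by 0.36 (SE 0.21, adjusted p = 0.421) and 472_at, above the limit on 3 of 5 arrays in each group, by 0.13 (SE 0.32, adjusted p = 0.897).

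The difference between the paralogues was tested itself, a comparison chosen after the values had been seen. For each array the log2 value of STAT5B was subtracted from that of STAT5A, which cancels what the probe sets of an array share, and the result was compared between groups. With 506_s_at and 33869_at it lay between 0.97 and 1.42 on resistant arrays and between -0.69 and 0.0022 on sensitive arrays, a difference of 1.38 (two-sided exact permutation p = 0.00794, the smallest that 5 against 5 arrays can give). Over all 6 pairings of STAT5A and STAT5B probe sets the difference was 1.05 to 1.38. In 5 of the 6 the groups did not overlap (exact permutation, Benjamini-Hochberg adjusted over the 6 pairings, p = 0.00953), and the sixth gave an adjusted p of 0.0159 in the same exact test. On these arrays the STAT5A probe sets thus rose more than the STAT5B probe sets. The 6 pairings reuse the same arrays and do not count as separate tests. Since the comparison was picked from these values, its p-values describe the separation and are no independent support. The annotation marks 506_s_at with a suffix used for probe sets that can match more than 1 transcript, and how far STAT5B contributes to it was not tested; 40458_at has no such suffix.

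**Figure D2:**
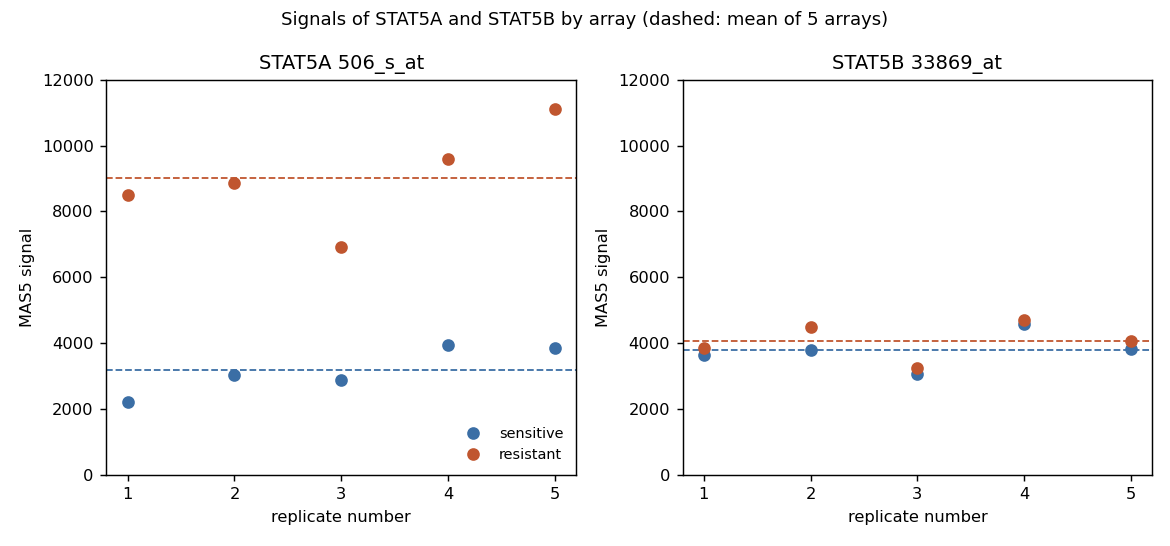
MAS5 signal on a linear axis from 0 against replicate number for STAT5A 506_s_at (left) and STAT5B 33869_at (right), with blue sensitive and orange resistant points and dashed group means. The STAT5A means are 3185 and 9006 with no overlap, whereas the STAT5B means of 3781 and 4071 have interleaved points.

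STAT3, which carries interleukin 6 and G-CSF signals, was not called at either of its probe sets. At 39708_at the sensitive signals were 2644, 3907, 3301, 4088 and 3793, and the resistant signals 5198, 5321, 6065, 5188 and 4890. The groups did not overlap, yet the log2 difference of 0.59 (SE 0.17) had an adjusted p of 0.0679. It was called when dim probe sets were left out (adjusted p = 0.0232), with a pseudocount of 500 (0.0186) and with a variance trend in eBayes (0.0255). The other STAT3 probe set, 289_at, differed by 0.33 (SE 0.20, adjusted p = 0.444), with resistant replicates 4 and 5 inside the sensitive range.

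STAT5B, STAT5A and STAT3 lie next to each other on chromosome 17, in that order in the RefSeq gene table. Of the 12 protein-coding genes nearest to STAT5A, 6 on each side, 9 were measured and 0 were called by limma at an adjusted p under 0.05, while 2 had an unadjusted p under 0.05. Their log2 differences ran from -0.84 at CAVIN1 to 0.59 at STAT3, and the lowest adjusted p was that of STAT3. With 8.4% of all genes called, a count of 0 among 9 is near the background.

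SOCS2, an inhibitor of growth hormone receptor signalling whose transcription STAT5 drives, had 1 probe set, bright on all arrays. The sensitive signals were 1917, 1837, 1840, 3114 and 2031, and the resistant signals 5896, 5146, 5945, 4692 and 5701. Sensitive replicate 4 was the highest of its group and still under every resistant array. The log2 difference was 1.33 (SE 0.19, adjusted p = 0.00079), a fold of 2.51 (95% interval 1.89 to 3.34). SOCS2 was called under each of the 16 alternatives, with adjusted p-values up to 0.0114.

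PIM1, a serine and threonine kinase that promotes survival and is a STAT5 target in haematopoietic cells, rose at both of its probe sets. At 1779_s_at the sensitive signals were 17156, 20117, 16387, 38370 and 41122, and the resistant signals 53921, 52877, 47973, 63112 and 73707. Sensitive replicates 4 and 5 stood well above the other 3 arrays of their group, and all 5 remained under the lowest resistant array. The log2 difference was 1.23 (SE 0.29, adjusted p = 0.022), a fold of 2.34 (95% interval 1.51 to 3.63). The call was lost without sensitive replicate 1, 2 or 3 or without resistant replicate 5, with adjusted p-values of 0.0501 to 0.0621. At 883_s_at the sensitive signals were 10979, 14506, 11052, 22282 and 30756, and the resistant signals 48302, 38873, 37948, 37496 and 52921. They did not overlap either, and the log2 difference of 1.37 (SE 0.29, adjusted p = 0.012) stayed called with any 1 array left out.

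**Figure D3:**
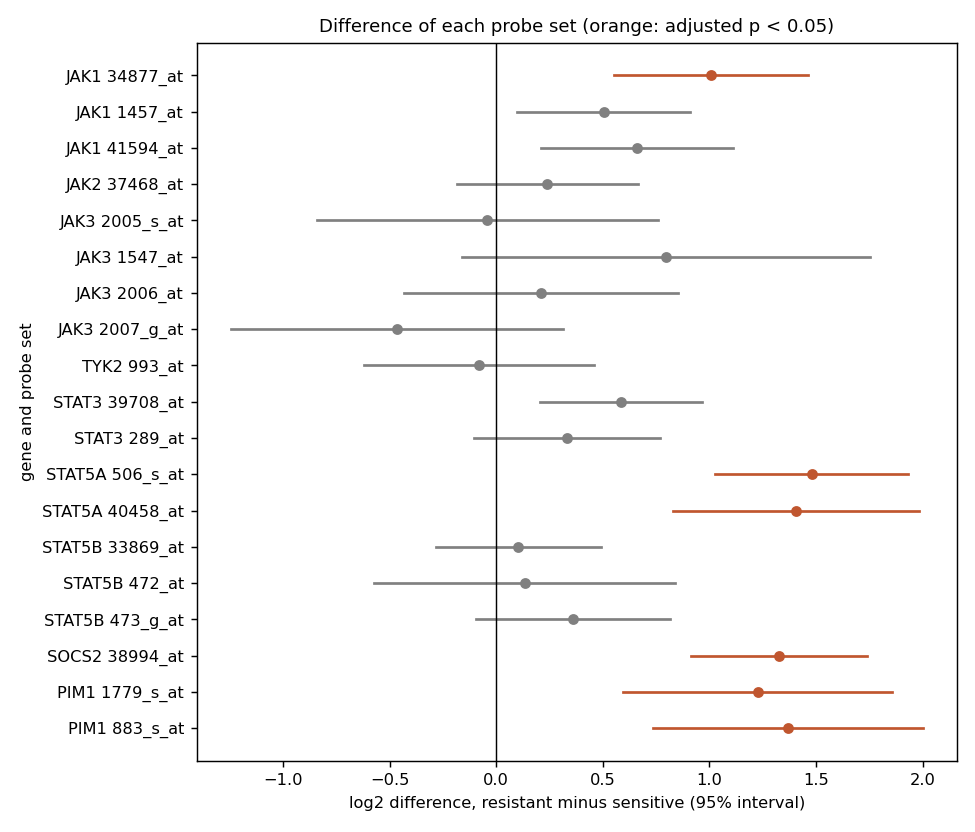
Log2 difference, resistant minus sensitive, for each of the 19 probe sets with its 95% interval, in orange where the adjusted p was under 0.05. The 6 called probe sets lie between 1.01 and 1.48, and the 13 others between -0.46 and 0.80.

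**Figure D4:**
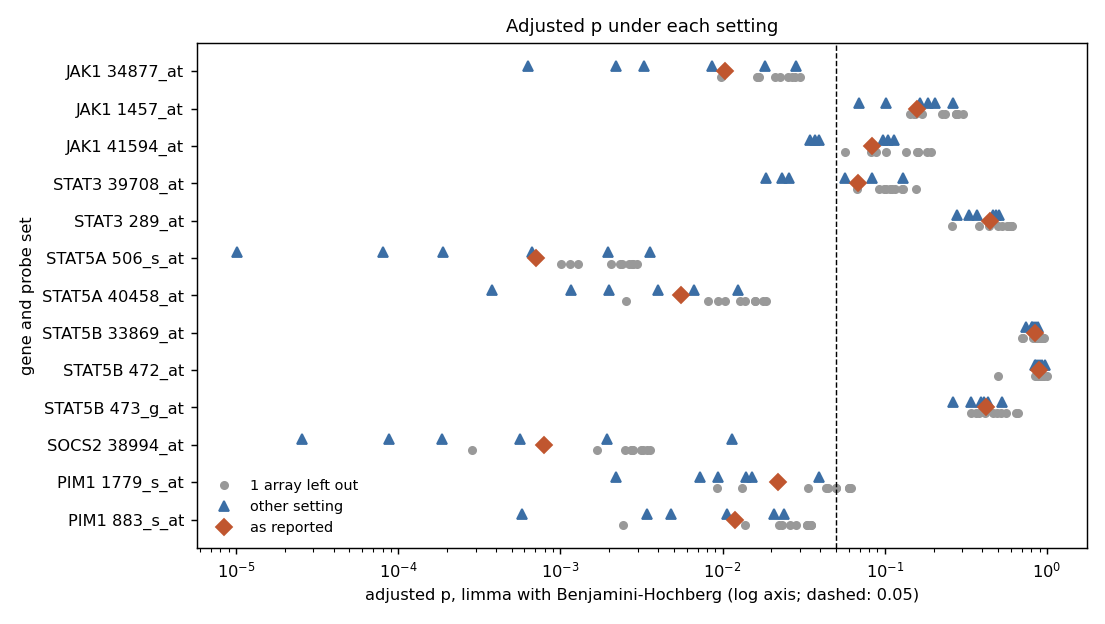
Adjusted p on a log axis for the probe sets of JAK1, STAT3, STAT5A, STAT5B, SOCS2 and PIM1 as reported (diamonds), with 1 array left out (circles) and under the other settings (triangles); the dashed line marks 0.05. STAT5A, SOCS2, JAK1 34877_at and PIM1 883_s_at stay left of the line throughout, STAT5B stays right of it, and PIM1 1779_s_at, STAT3 39708_at and JAK1 41594_at have values on both sides.

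The other genes of the pathway were counted through lists, 1 probe set standing for each gene, that of the highest mean; over all 8226 genes 8.4% were called, 4.94% as higher and 3.46% as lower, with a median log2 difference of 0.033. Among cytokine receptors that signal through Janus kinases, 6 of 28 measured genes were called, 2 higher and 4 lower, and the median difference was 0.010. Receptors of the granulocyte and eosinophil cytokines were among those that fell. CSF2RB, the beta chain shared by the interleukin 3, interleukin 5 and GM-CSF receptors, averaged 13144 ± 5082 against 5198 ± 856 (SD, n = 5), and fell by 1.24 on the log2 scale (SE 0.28, adjusted p = 0.0174). With the replicate number as a block, CSF2RB was not called (adjusted p = 0.0593). Its other 2 probe sets, with log2 differences of -1.06 and -0.67, were not called (adjusted p = 0.163 and 0.536). IL5RA, the alpha chain of the interleukin 5 receptor found on eosinophils, fell from 1536 ± 800 to 358 ± 117 (log2 difference -1.70, adjusted p = 0.00732); its other probe set was above the limit on no array and was not called (0.22). CSF3R, the G-CSF receptor, was above the limit on 5 sensitive and 0 resistant arrays and was at least 1.38-fold lower in resistant cells, a bound taken against the limit (772 ± 298 and 173 ± 83.0; adjusted p = 0.00189). These falls had the same direction as the loss of granule marker signal given above, whose part in them was not tested. IL6ST, the gp130 chain of the interleukin 6 family receptors, rose by 1.83 on the log2 scale, with a mean of 317 ± 229 in sensitive and 1336 ± 651 in resistant arrays (SE 0.39, adjusted p = 0.0122). Its other probe set, 37621_at, was above the limit on no array and was not called (0.69, adjusted p = 0.345). The IL6ST call was lost with the replicate number as a block (adjusted p = 0.0536).

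Of 23 measured cytokines and hormones of these receptors, 1 was called. IL15 was not above the limit on any sensitive array and was on 4 resistant ones, and it was at least 1.28-fold higher (163 ± 107 and 644 ± 190, limma adjusted p = 0.00912). The other IL15 probe set, 1036_at, was above the limit on no array and was not called (0.48, adjusted p = 0.499). Of the 23 genes 10 were at or under the limit on all arrays, so that little of the list could be measured. The count was 0 with a pseudocount of 16. It was 2 without sensitive replicate 1 or resistant replicate 2, 4 or 5.

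The other STAT genes and the inhibitors of the pathway were called in 2 of 18, both higher, with a median difference of -0.075. STAT4, the factor of interleukin 12 signalling, was not above the limit on any sensitive array and was on all 5 resistant ones, at least 3.11-fold higher (326 ± 179 and 1542 ± 340; adjusted p = 0.00147). SOCS1, an inhibitor that binds Janus kinases directly, gave 767, 535, 472, 1063 and 1085 in sensitive and 3843, 5339, 4382, 1586 and 3731 in resistant arrays. Every resistant array was above every sensitive one, and the log2 difference was 2.08 (SE 0.33, adjusted p = 0.00171). SOCS1 also had a dim second probe set, 41593_at, not above the limit on any array and not called (0.84, adjusted p = 0.184).

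Of 16 other genes known as STAT5 targets, 5 were called, 4 higher and 1 lower, with a median difference of 0.40. Like the other lists, this one was chosen with earlier results of these data known, so its count is descriptive. At its brightest probe set CCND2, the cell cycle gene for cyclin D2, was not above the limit on any sensitive array. The mean there was 260 ± 124 in sensitive and 3055 ± 604 in resistant arrays, at least 6.20-fold higher (adjusted p = 1.93e-05). The other CCND2 probe set, 1983_at, was above the limit on 2 sensitive and 5 resistant arrays. It was called as well but rose less, by 1.63 against 3.14 on the log2 scale (SE 0.31, adjusted p = 0.00673). The bound therefore holds for the brightest CCND2 probe set only. ID1, an inhibitor of basic helix-loop-helix factors, had 6873, 8032, 2793, 6760 and 10035 in sensitive arrays against 63743, 76727, 54745, 56964 and 54609 in resistant arrays. The log2 difference of ID1 was 3.23 (SE 0.30, adjusted p = 2.77e-05), and no resistant array overlapped the sensitive ones. BCL2L1, which encodes the survival protein BCL-XL, averaged 1172 ± 314 and 2607 ± 248, a rise of 1.11 on the log2 scale (SE 0.20, adjusted p = 0.0047); its other probe set, 34742_at, differed by 1.00 and was not called (adjusted p = 0.16). GFI1, a transcriptional repressor of granulocyte development, fell by 1.78 on the log2 scale, the means being 6097 ± 2548 and 1663 ± 559 (SE 0.29, adjusted p = 0.00211). The fifth was IL2RA, the interleukin 2 receptor alpha chain, outside the rule for named genes and named after its values were seen. Its log2 difference was 2.11 (SE 0.48, adjusted p = 0.0174), and the adjusted p was 0.0505 without sensitive replicate 2. IL2RA was also counted among the called receptors.

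STAT3 targets and interferon-induced genes were called in both directions. Among STAT3 targets 3 of 13 were called, with a median difference of 0.13: TIMP1, an inhibitor of matrix proteases, rose from 3121 ± 715 to 13118 ± 2924, CEBPD, a transcription factor of myeloid cells, fell from 13600 ± 2084 to 4299 ± 557, and the third was IL6ST. Among interferon-induced genes 4 of 24 were called and the median difference was 0.43. IFI44 was at least 10.7-fold higher in resistant cells. IFIT1 (log2 difference 1.41, adjusted p = 0.00388) and IFIT3 (2.01, adjusted p = 0.00141) rose, while MX2 was at least 5.98-fold lower (3181 ± 305 against 189 ± 134; adjusted p = 3.02e-06). Of the 24 interferon-induced genes 20 had a difference above 0, against 4436 of all 8226 genes. Differences above 0 were also found in 10 of 13 STAT3 targets, 15 of 23 cytokines and 10 of 16 STAT5 targets. The counts were 14 of 28 for receptors, 9 of 20 for BCR-ABL signalling and 8 of 18 for other STATs and inhibitors. Of the 24, 17 were above the limit on at least 3 arrays of either group and 3 on no array. Part of the 20 signs thus comes from signals near background.

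Among BCR, ABL1 and the adaptors and kinases of BCR-ABL signalling, 3 of 20 measured genes were called, 2 higher and 1 lower, with a median difference of -0.074. FYN, a kinase of the SRC family, was at least 10.7-fold higher at its brightest probe set (95.5 ± 65.9 against 5401 ± 1842, limma adjusted p = 4.74e-07). A further FYN probe set, 40480_s_at, was called as well (log2 difference 4.59, adjusted p = 1.08e-07). FYN 40479_at, above the limit on no array, differed by 1.14 and was not called (adjusted p = 0.0903). Nor was 40481_r_at, above the limit on 1 array of each group, which differed by -0.20 (adjusted p = 0.873). INPP5D, the lipid phosphatase SHIP1, rose by 0.85 on the log2 scale (SE 0.23, adjusted p = 0.0424), and HRAS fell from 1736 ± 654 to 787 ± 76.9 (log2 difference -0.96, adjusted p = 0.0363). The other HRAS probe set, 35701_at, differed by -1.21 and was not called (limma adjusted p = 0.313). INPP5D kept its call with 1 array left out in 2 of 10 cases, without resistant replicate 3 or 4, and HRAS in 1, without sensitive replicate 4; the adjusted p otherwise reached 0.0514 to 0.107 and 0.0557 to 0.0918. BCR and ABL1, singled out after their values were seen because the fusion joins them, were not called. Their log2 differences were 0.15 (limma adjusted p = 0.713) and 0.58 (adjusted p = 0.0738). The ABL1 signals of the groups did not overlap, the resistant arrays being higher. ABL1 was called when dim probe sets were left out (adjusted p = 0.0261), with a pseudocount of 500 (0.0187) and with a variance trend in eBayes (0.0156). The count of 3 was unstable: it was 1 without sensitive replicate 1, 2 or 3 or resistant replicate 1, 2 or 5, and 7 with a pseudocount of 500 or when dim probe sets were left out.

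**Figure D5:**
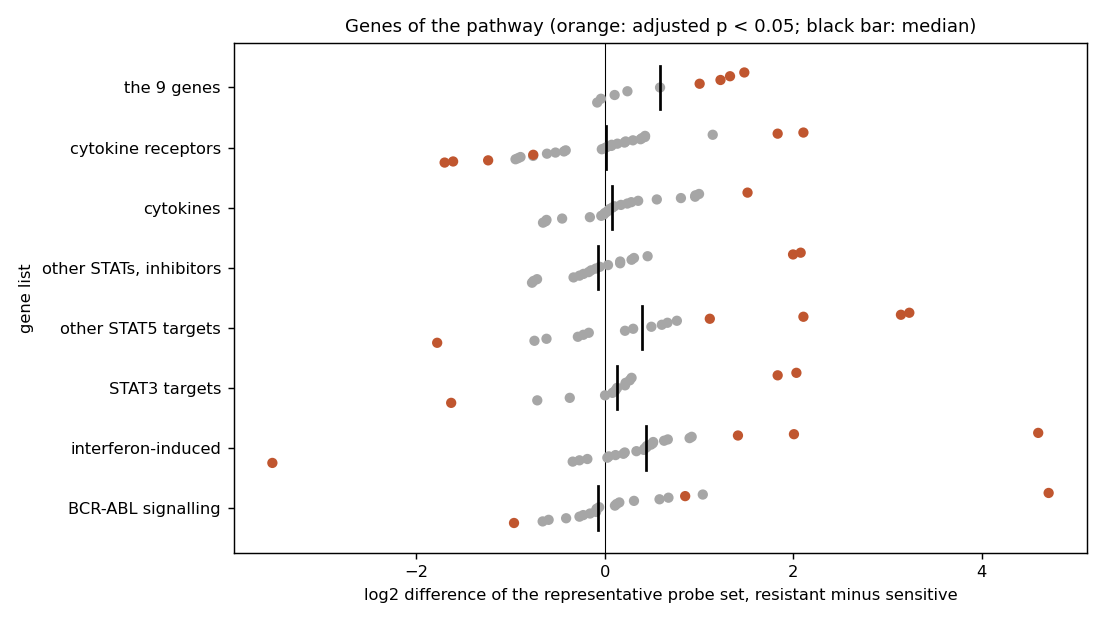
Log2 difference, resistant minus sensitive, of the representative probe set of each measured gene in the 9 genes described here and in the 7 lists, in orange where the adjusted p was under 0.05, with a black bar at the median. The called genes among the 9 all lie to the right of 0, whereas called cytokine receptors, STAT3 targets and interferon-induced genes lie on both sides.

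For each of the 4 called members, the genes with the most similar profile over the 10 arrays were found by Pearson's r of log2 signals, given as a description since the points share 2 groups of arrays. STAT5A was most like TM4SF1 and LCP2 (r = 0.977 each). The profile nearest to SOCS2 was that of AKAP12 (r = 0.988), followed by ALDH2 (r = 0.984). JAK1 went with SGK1 (r = 0.959) and DAB2 (r = 0.957), and PIM1 with IL1B (r = 0.987) and ADAM23 (r = 0.981). All 8 were called higher in resistant arrays, by 1.65 (ADAM23) to 5.97 (ALDH2) on the log2 scale. This direction follows from choosing genes by their likeness to members called higher, and is no separate result. IL1B lost its call without sensitive replicate 1, 2 or 3 or resistant replicate 1, 4 or 5, with adjusted p-values of 0.0552 to 0.0645.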

How the data were processed

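RNA of 10 samples was measured on 1-colour Affymetrix arrays. The sample titles gave groups and replicate numbers. The deposited values are intensities (signals on a linear scale) for 12625 probe sets, made by the authors with MAS5 per the submitters' processing notes; its version is not given in the sources used here, nor are its settings. The 67 control probe sets were left out of the tests.

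Gene names came from the platform annotation, brought up to date through Entrez identifiers with the RefSeq table of GRCh38.p14: 10943 had 1 symbol, 545 several and 1070 none, and those with several named no gene. Each array was scaled to a common 2% trimmed mean. Log2(signal + 114.8), the pseudocount being the 20th percentile of all signals, was fitted in R 4.3.3 by limma 3.58.1 (lmFit, eBayes), without covariates, and tested on simulated data; p-values were adjusted by Benjamini-Hochberg over 12558 probe sets. Exact permutation tests used scipy 1.17.1. A bound ("at least") is given where no array of the dim group exceeded the background limit: dim values were raised to the limit of their array before group means of log2 signals were compared.

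The members and the lists were chosen with earlier results of these data known. Named are all members, the 4 called genes of each list with the smallest adjusted p, and the 2 genes most like each called member. Alternatives were quantile normalization, pseudocounts of 16 and 500, a filter keeping probe sets above the limit on at least 3 arrays of either group, the replicate number as a block, a variance trend with a robust prior, the mean of a gene's probe sets (for lists), and leaving out each array.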

Additional observations from a re-analysis of the deposited data

Results flagged for a closer look

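In groups of 5 arrays, the gap of the highest or lowest array to its nearest neighbour was compared with the group's range on the log2 scale, and 6 of 78 groups exceeded the critical ratio of 0.71; chance flags about 1 in 20. Among the members these were SOCS2 in sensitive arrays (ratio 0.812), where replicate 4 was the highest at 3114, and JAK3 in sensitive arrays at 2006_at (0.834, replicate 5, signal 318) and at 1547_at (0.736, replicate 3, signal 494), both under the background limit of their array. Among the list genes they were HRAS in resistant arrays (0.755, replicate 4 lowest at 654), IFI44 in resistant arrays (0.717, replicate 3 lowest at 4119) and IFIT3 in resistant arrays (0.712, replicate 3 highest at 4833).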

How the results depend on the processing

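The count of called probe sets was 931 as reported, 691 to 860 with 1 array left out and 788 to 1169 under the other settings; that of the members was 6, then 5 to 6 and 6 to 8. Every alternative of these counts stayed within 1.5 times. Of 300 recomputed log2 differences of member probe sets, 282 kept direction and side of the threshold, 4 lost the call (PIM1 1779_s_at), 6 gained it (JAK1 41594_at and STAT3 39708_at) and 8 turned sign. The sign turned at JAK3 2005_s_at with a pseudocount of 500 (0.021), without sensitive replicate 3 (0.0084) or 5 (0.0087) and without resistant replicate 1 (0.056) or 2 (0.27), the range with 1 array left out being -0.28 to 0.27. It also turned at TYK2 without sensitive replicate 3 (0.039) or resistant replicate 4 (0.046), in a range of -0.21 to 0.046, and at STAT5B 472_at without sensitive replicate 3 (-0.096), in a range of -0.096 to 0.40; none of these was called, and the cause was not tested. The count of called cytokines, 1 as reported, was 0 with a pseudocount of 16, 2 with a pseudocount of 500, 2 with the filter on dim probe sets, 2 with the variance trend, 2 with gene means and 1 to 2 with 1 array left out. The count for BCR-ABL signalling, 3 as reported, was 1 with a pseudocount of 16, 7 with a pseudocount of 500, 7 with the filter, 7 with the variance trend, 6 with gene means and 1 to 4 with 1 array left out. The other 5 list counts moved by at most 1.5 times. The STAT5A minus STAT5B difference of 1.38 was 1.27 to 1.44 with 1 array left out and 1.28 to 1.40 under the other settings, alternatives added after the data were seen. Groups share replicate numbers, and the labels do not say whether these pair the samples. Deviations of same-numbered arrays correlated at 0.00865 to 0.123, over 0.1 in 1 of 5 pairs. Of the 10 arrays, 4 correlated best with their own number. These weak correlations do not settle whether the numbers pair the samples. With the replicate block 794 probe sets and 6 member probe sets were called, and CSF2RB (adjusted p = 0.0593) and IL6ST (0.0536) were not. Of the 20 list genes named by the rule, 12 had 16 further probe sets, of which 6 were called in the same direction, 10 were not called and 0 were called by limma in the opposite direction, 0 also at an unadjusted p under 0.05. Of 496 recomputed differences of the 31 other named genes, 464 kept direction and side, 29 lost the call, 3 gained it (ABL1) and 0 turned sign. Signal over background limits JAK2, JAK3 and most cytokines.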

Other observations

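In both groups the arrays of replicates 4 and 5 had the highest signals of STAT5A at 506_s_at (3955 and 3842 in sensitive, 9587 and 11125 in resistant arrays). The same was true of PIM1 at 1779_s_at (38370 and 41122 in sensitive, 63112 and 73707 in resistant arrays), but not at 883_s_at, where resistant replicate 4 was the lowest of its group (37496). For SOCS2 it was not: replicate 4 was the highest sensitive array (3114) and the lowest resistant array (4692). Sensitive replicates 4 and 5 also stood far above the other sensitive arrays in granule genes EPX (40734 and 38859 against 3585 to 4885) and CLC (41628 and 107507 against 3590 to 3860). The erythroid marker GATA1 did the same (3800 and 3650 against 431 to 968). CTSG, another granule gene, went the other way (1773 and 1675 against 3007 to 11912). What set these arrays apart was not tested.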
